A study of Homo sapiens with 4 samples.

Results

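Integrins and laminins are the receptors and the ligands of the contact between a cell and its basement membrane. The group described here was a list of 36 gene symbols, 26 integrin chains and 10 laminin chains, and its members were the probe sets carrying those symbols, the brightest per gene over the 4 arrays. Of the 36 genes 30 had a named probe set, out of 15870 genes named on the array, and each of the 30 had only 1. They were 17 integrin alpha chains, 6 integrin beta chains and 7 laminin chains. ITGA1, ITGB6, ITGB8, LAMA3, LAMA5 and LAMB3 had none and were not analysed here.

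The study measured total RNA of MDA-MB-231 cells, an established mesenchymal-like human breast carcinoma line, on 4 Affymetrix arrays. In 2 arrays the label gives a transfection with shDROSHA, a hairpin against DROSHA, which encodes the RNase of the nucleus that releases precursor hairpins from primary microRNA transcripts. The other 2 were of cells labelled shNC, which the design text calls mock-transfected, and which of these describes them was not settled here. All cells were grown in the same serum-containing medium, and the titles call the replicates biological. The hairpin sequence, the number of hairpins and the time after their delivery do not stand in the labels. The question put to the arrays was which genes DROSHA regulates at the level of mRNA.

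Values were log2 signals, and their median over all probe sets was 7.21 and 7.21 in the shDROSHA arrays, against 7.25 and 7.24 in the shNC arrays. DROSHA mRNA itself read 8.71 and 8.74 in the shDROSHA arrays, against 9.66 and 9.76 in the shNC arrays, so the knockdown at the mRNA level was 1.98-fold. The mesenchymal-like markers VIM, CD44, EGFR, AXL and ZEB1 all lay above the median signal, and 3 of the 4 measured luminal markers, among them the estrogen receptor gene ESR1, lay below it.

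Each integrin is a dimer of an alpha and a beta chain that spans the membrane and links extracellular matrix to the actin cytoskeleton, or, for the dimer of ITGA6 and ITGB4, to keratin filaments at hemidesmosomes. The alpha chain largely sets which matrix protein is bound, and a surplus chain without a partner does not usually reach the cell surface. Laminins are secreted trimers of an alpha, a beta and a gamma chain and form the network of basement membranes. In breast epithelium, laminin receptors anchor the basal side of the cells.

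Among the laminin receptors, chains changed in opposite directions. ITGB4, the beta chain of the hemidesmosome receptor, fell, whereas ITGA6, its only alpha partner, and ITGA3, another laminin-binding alpha chain, rose. ITGA2, the alpha chain of a collagen and laminin receptor, fell. No laminin chain and none of the leukocyte integrins passed the test. In all, 2 of the 30 members rose and 2 fell, at an adjusted p under 0.05 in limma fitted with a variance prior that varies with signal (the trended fit). That is 13.3% of the members, against 6.41% of all 18603 probe sets, 3.12% called higher and 3.28% called lower. All 4 called members lay at or above the median signal, where 13 of the 30 lay and where 11% of all probe sets were called, against 1.86% below it. The median log2 fold change of the 30 members was -0.03, and that of all named genes was -0.001. With 1 constant prior variance for all probe sets, 0 members were called, and 1 probe set was called on the whole array (0.00538%). At an unadjusted p under 0.05 in that limma fit were 8 of the 30 members and 2774 of the 18603 probe sets. DROSHA itself was not called in that fit (limma adjusted p = 0.0843).

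**Figure D1:**
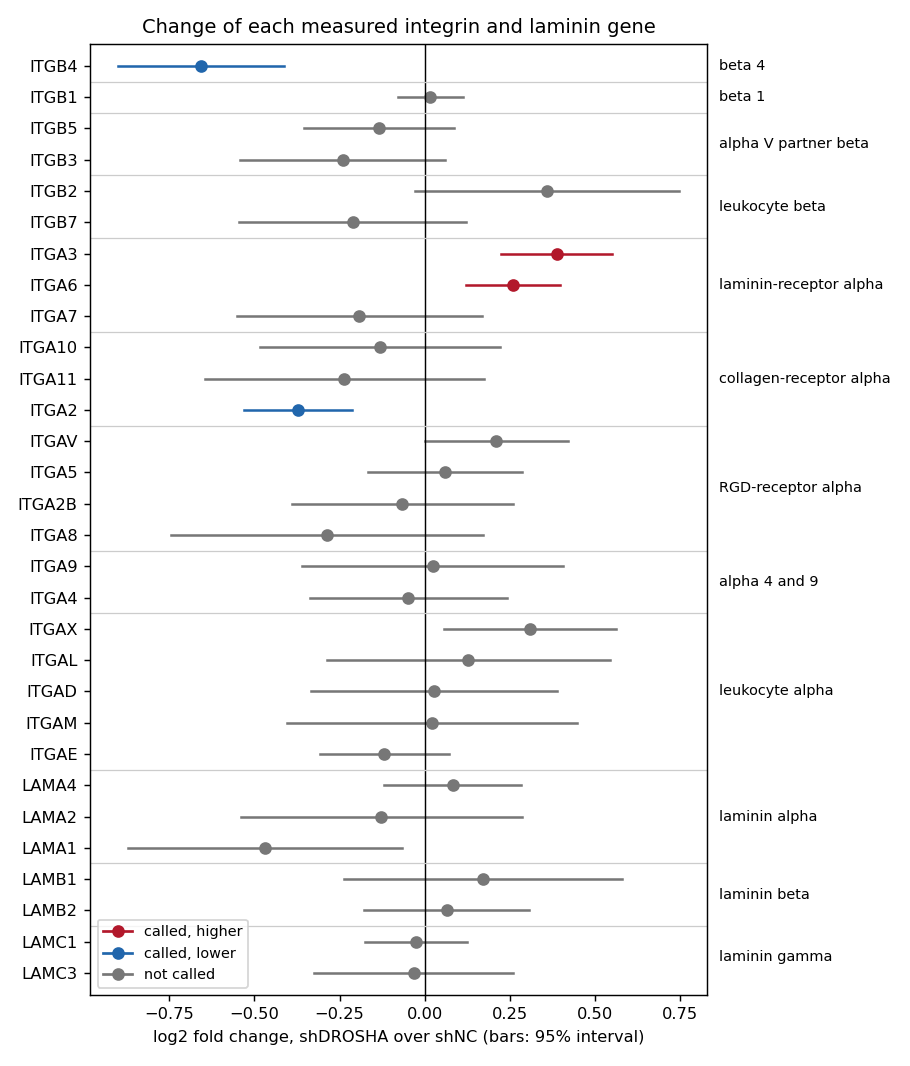
Log2 fold change of shDROSHA over shNC on the horizontal axis for each of the 30 measured genes, grouped by role, with points for the estimate and bars for its 95% interval in the trended fit. ITGB4 at -0.66 and ITGA2 at -0.37 are called lower, ITGA3 at 0.39 and ITGA6 at 0.26 are called higher, and the intervals widen for dim genes such as ITGA8.

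ITGB4 had the largest change among the members. It read 7.13 and 7.09 in the shDROSHA arrays, against 7.80 and 7.74 in the shNC arrays (means 7.11 ± 0.028 and 7.77 ± 0.047, SD, n = 2 each). Both shDROSHA arrays lay below both shNC arrays, by far more than the gap within either pair. The log2 fold change was -0.66 (SE 0.113, 95% interval -0.90 to -0.41), or 1.58-fold lower, with an adjusted p of 0.00322 in limma. In RNA from a whole culture, fewer cells with the transcript and less of it per cell cannot be told apart. With each of the 4 arrays left out in turn, the log2 fold change was -0.69 to -0.62. The call was lost with a constant prior (limma adjusted p = 0.142).

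ITGA6, which pairs with ITGB4 or with ITGB1, read 9.85 and 9.94 in the shDROSHA arrays, against 9.61 and 9.66 in the shNC arrays. The shDROSHA arrays lay above the shNC arrays without overlap, and the log2 fold change was 0.26 (SE 0.0648, 95% interval 0.12 to 0.40, limma adjusted p = 0.0283), or 1.20-fold higher. Of the 4 calls, this had the largest adjusted p in limma. ITGA6 was not called without shNC replicate 2, shDROSHA replicate 2 or shNC replicate 1, at log2 fold changes of 0.29, 0.21 and 0.23. The call was also lost with a constant prior (limma adjusted p = 0.287).

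ITGA3 pairs with ITGB1 and binds laminins of epithelial basement membranes. It read 9.33 and 9.23 in the shDROSHA arrays, against 8.93 and 8.86 in the shNC arrays. Both shDROSHA arrays were higher, with a log2 fold change of 0.39 (SE 0.0761, 95% interval 0.22 to 0.55, limma adjusted p = 0.00728), or 1.31-fold. With each array left out in turn, the log2 fold change was 0.34 to 0.44. The call was lost with a constant prior (limma adjusted p = 0.208). ITGA7, a further laminin-binding alpha chain and best known from muscle, was dim and was not called (log2 fold change -0.19, SE 0.167). It read 5.43 and 5.49 in the shDROSHA arrays, against 5.64 and 5.66 in the shNC arrays.

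ITGA2 pairs with ITGB1 and binds collagens. Its signal was 9.17 and 9.08 in the shDROSHA arrays, against 9.55 and 9.44 in the shNC arrays. Both shDROSHA arrays were lower, and the log2 fold change was -0.37 (SE 0.0738, 95% interval -0.53 to -0.21, limma adjusted p = 0.00784), or 1.29-fold lower. Without shNC replicate 1 the call was lost (log2 fold change -0.32, adjusted p = 0.0952), as it was with a constant prior (0.218). The other collagen-binding alpha chains measured, ITGA10 and ITGA11, were dim and also lower in both shDROSHA arrays, at log2 fold changes of -0.13 (SE 0.164) and -0.24 (SE 0.191), without passing.

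**Figure D2:**
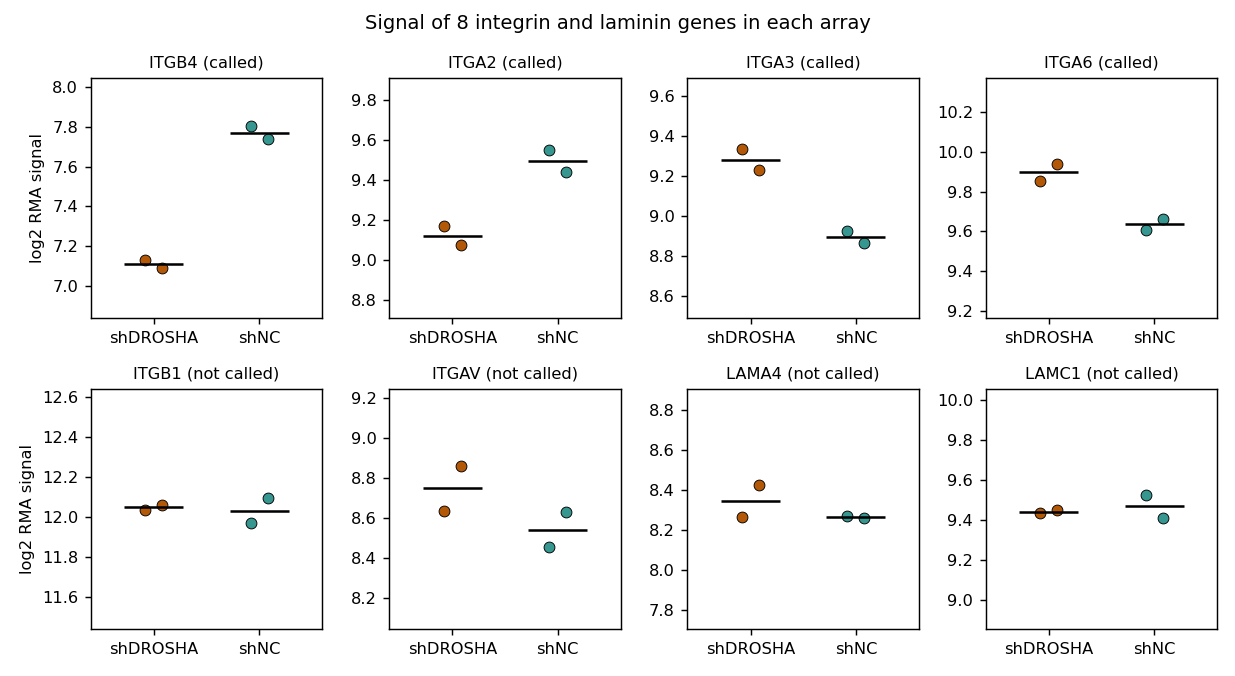
Log2 signal of 8 members in each array, with shDROSHA left of shNC, points for single arrays, horizontal lines for group means and vertical axes of equal span. The groups separate for ITGB4, ITGA2, ITGA3, ITGA6 and ITGAV and overlap for ITGB1, LAMA4 and LAMC1.

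The RefSeq table of start sites (GRCh38.p14) matched 19 of the 30 members. It held ITGA2 and ITGA6 of the 4 called genes, and their 250 bases before the first listed start are shown because these alpha chains changed in opposite directions. Capitals mark matches on either strand to any of 5 motifs searched, the GC box GGGCGG, the AP-1 motif TGANTCA, the E-box CACCTG, the TATA box TATAAA and the CCAAT box CCAAT.
ITGA2, chr5:52989102-52989351, plus strand: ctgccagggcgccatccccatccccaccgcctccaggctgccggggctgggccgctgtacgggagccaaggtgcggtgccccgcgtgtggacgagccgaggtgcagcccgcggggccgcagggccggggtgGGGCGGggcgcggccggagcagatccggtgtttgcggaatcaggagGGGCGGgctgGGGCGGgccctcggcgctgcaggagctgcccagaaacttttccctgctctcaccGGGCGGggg
ITGA6, chr2:172427086-172427335, plus strand: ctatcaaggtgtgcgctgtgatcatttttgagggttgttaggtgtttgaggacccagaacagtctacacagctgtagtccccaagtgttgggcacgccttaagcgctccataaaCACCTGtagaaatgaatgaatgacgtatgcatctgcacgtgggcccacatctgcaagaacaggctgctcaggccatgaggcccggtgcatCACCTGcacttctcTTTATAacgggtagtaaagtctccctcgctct
The ITGA2 window held 4 GC boxes, 0 of the other motifs, and 76.4% G and C. The window of ITGA6 held 2 matches to CACCTG, the only E-box form searched. It also held, 32 bases before the start and on the opposite strand, 1 TATA box. It held 0 GC boxes and 50.8% G and C. RefSeq lists 2 starts for ITGA6, and the window before the other, chr2:172427336-172427585, held 3 GC boxes, 0 of the other motifs, and 71.6% G and C. Among all 27305 genes of the table, 42.3% had a GC box in this window, 17.5% the E-box, 11.1% the TATA box, 33% the CCAAT box and 6.6% the AP-1 motif. Among the 19 members the shares were 47.4%, 10.5%, 5.26%, 10.5% and 0%. No motif overlapped another in the printed windows. The matches are letters in a window and were not tested against the changes.

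ITGB1, the shared beta chain of most matrix-binding integrins, was among the brightest probe sets of the array and differed by less than the gap between the shNC replicates. It read 12.04 and 12.06 in the shDROSHA arrays, against 11.97 and 12.10 in the shNC arrays. The shDROSHA values lay between the shNC values, and the log2 fold change was 0.02 (SE 0.0448, 95% interval -0.08 to 0.11). The sign was not settled, being -0.02 with quantile normalization applied again and -0.05 without shNC replicate 1. Its interval leaves out changes as large as those of ITGA2, ITGA3 or ITGB4.

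ITGB3 and ITGB5, which pair with ITGAV, were lower in both shDROSHA arrays without passing. ITGB3, which with ITGAV binds vitronectin, read 6.42 and 6.53 in the shDROSHA arrays, against 6.72 and 6.71 in the shNC arrays (log2 fold change -0.24, SE 0.14, limma adjusted p = 0.387). ITGB5, another vitronectin receptor chain, read 7.85 and 7.82 in the shDROSHA arrays, against 7.90 and 8.04 in the shNC arrays (-0.13, SE 0.102, adjusted p = 0.542). ITGAV itself was on the other side of 0, at 8.64 and 8.86 in the shDROSHA arrays, against 8.45 and 8.63 in the shNC arrays. The lower shDROSHA array lay just above the higher shNC array, and the log2 fold change of 0.21 (SE 0.0976) did not pass (limma adjusted p = 0.258). With each array left out in turn, the log2 fold change of ITGAV was 0.10 to 0.32.

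The remaining alpha chains of matrix receptors showed small differences. ITGA5, the main fibronectin receptor chain, read 7.82 and 7.94 in the shDROSHA arrays, against 7.77 and 7.87 in the shNC arrays, and the groups overlapped (log2 fold change 0.06, SE 0.105). ITGA4, which binds VCAM1 and fibronectin, differed by -0.05 (SE 0.135), and ITGA9, which binds tenascin-C among others, by 0.02 (SE 0.178). ITGA8, a nephronectin receptor chain, was at -0.29 (SE 0.213), but shNC replicate 2 at 5.26 stood apart from the other 3 arrays at 4.66 to 4.71, and without it the difference was 0.003. ITGA2B, the platelet fibrinogen receptor chain, differed by -0.07 (SE 0.151).

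Of 21 alpha and beta pairs known to form a dimer and measured on both sides, the pair of ITGA6 and ITGB4 was the only 1 whose chains were both called. Within each array, log2 ITGA6 minus log2 ITGB4 was 2.72 and 2.85 in the shDROSHA arrays, against 1.81 and 1.93 in the shNC arrays. These values say nothing of the ratio of the mRNAs in the cell, but their change between groups, 0.92 on the log2 scale or 1.89-fold, does not depend on the centring of single arrays. An exact permutation test over the 4 arrays gave a two-sided p of 0.33, the smallest that 2 arrays against 2 allow. The same change in alpha minus beta was 0.45 for ITGAV and ITGB3 and 0.34 for ITGAV and ITGB5. Against ITGB1 it was 0.37 for ITGA3, 0.24 for ITGA6 and -0.39 for ITGA2, each also at the smallest permutation p. Uncalled pairs reached that p too, such as ITGA4 with ITGB1 at -0.06, since it only requires that the groups do not overlap. ITGB1 is shared by 11 of the 21 pairs, so they are not independent.

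**Figure D3:**
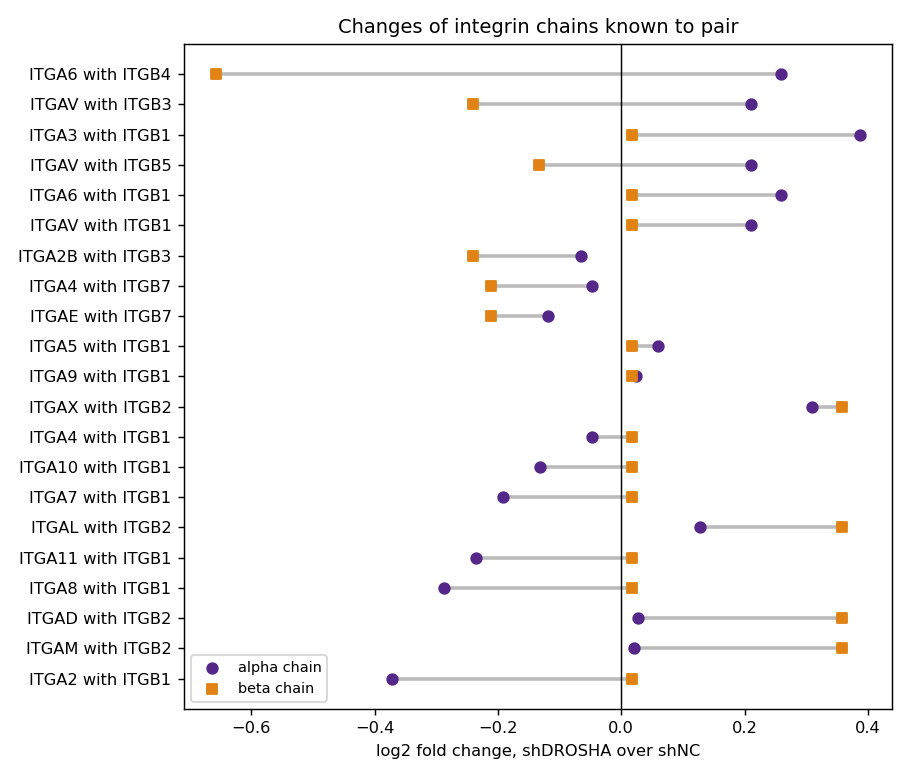
Log2 fold change of shDROSHA over shNC for the alpha chain (circles) and the beta chain (squares) of 21 integrin pairs, joined by lines and ordered by alpha minus beta. The widest gap is that of ITGA6, at 0.26, and ITGB4, at -0.66, and ITGA2 with ITGB1 lies at the opposite end.

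None of the 7 measured laminin chains passed the trended fit in limma, and none passed with a constant prior. In the trended fit 1 of the 7 had an unadjusted p under 0.05, against 3599 of all 18603 probe sets. LAMC1, the gamma chain of most laminins, was bright and read 9.44 and 9.45 in the shDROSHA arrays, against 9.53 and 9.41 in the shNC arrays. The groups overlapped, and the log2 fold change was -0.03 (SE 0.0699, 95% interval -0.18 to 0.12). LAMA4, an alpha chain best known from vessels and muscle, read 8.27 and 8.43 in the shDROSHA arrays, against 8.27 and 8.26 in the shNC arrays, and its log2 fold change was 0.08 (SE 0.0939). LAMB2, the second beta chain of the family, read 7.83 and 7.69 in the shDROSHA arrays, against 7.79 and 7.60 in the shNC arrays, for 0.06 (SE 0.113), with -0.002 to -0.03 without shDROSHA replicate 1 or shNC replicate 2.

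The other laminins were dim. LAMA1, an alpha chain of embryonic basement membranes, read 4.57 and 4.39 in the shDROSHA arrays, against 4.93 and 4.96 in the shNC arrays. It was the only 1 of the 7 measured laminins whose groups did not overlap (14.3%, against 47.8% of all probe sets). Its log2 fold change was -0.47 (SE 0.188, 95% interval -0.87 to -0.07), and it did not pass (limma adjusted p = 0.175). LAMA2, the alpha chain of muscle laminin, differed by -0.13 (SE 0.192), LAMB1, the widespread beta chain, by 0.17 (SE 0.19) and LAMC3, a gamma chain of few tissues, by -0.03 (SE 0.136), each with overlapping groups. Their 95% intervals were wide, at -0.54 to 0.28 for LAMA2, -0.24 to 0.58 for LAMB1 and -0.32 to 0.26 for LAMC3, so a fall of LAMA2 as large as that of ITGA2 and a rise of LAMB1 as large as that of ITGA3 lay within them.

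Integrins known from leukocytes were measured for 7 of 7 genes, and limma called 0 of them in either fit. At an unadjusted p under 0.05 in the trended fit was 1 of the 7, against 3599 of all 18603 probe sets. ITGAX, a complement receptor chain, read 7.47 and 7.58 in the shDROSHA arrays, against 7.27 and 7.16 in the shNC arrays (log2 fold change 0.31, SE 0.118, adjusted p = 0.151). ITGB2, its beta partner, read 6.25 and 6.46 in the shDROSHA arrays, against 5.76 and 6.24 in the shNC arrays, and shNC replicate 1 was the low value. Its log2 fold change of 0.36 (SE 0.18, adjusted p = 0.305) was 0.12 without that array. ITGAE, which with ITGB7 binds E-cadherin, read 8.72 and 8.95 in the shDROSHA arrays, against 8.98 and 8.92 in the shNC arrays, for a difference of -0.12 (SE 0.0882). ITGAL, ITGAM and ITGAD, the alpha chains of ICAM and complement receptors, differed by 0.13, 0.02 and 0.03 with overlapping groups, and ITGB7 by -0.21 (SE 0.156). All 5 measured leukocyte markers, PTPRC among them, lay below the median signal of the array, and none was called. Their summed log2 signal was 27.43 to 27.47 in the shDROSHA arrays, against 26.89 to 27.30 in the shNC arrays, and its part in the values of ITGAX and ITGB2 was not tested.

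Over the 30 members, the groups did not overlap for 15, which is 50%, against 47.8% of all probe sets, so this count is near the background. Of the 15, 5 were higher in shDROSHA and 10 lower, where all probe sets had 23.4% higher and 24.4% lower. The 13 brighter members had SEs of 0.0448 to 0.118 on the log2 scale and the 17 dimmer ones 0.135 to 0.213, so the same difference could be called in the first set and missed in the second.

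**Figure D4:**
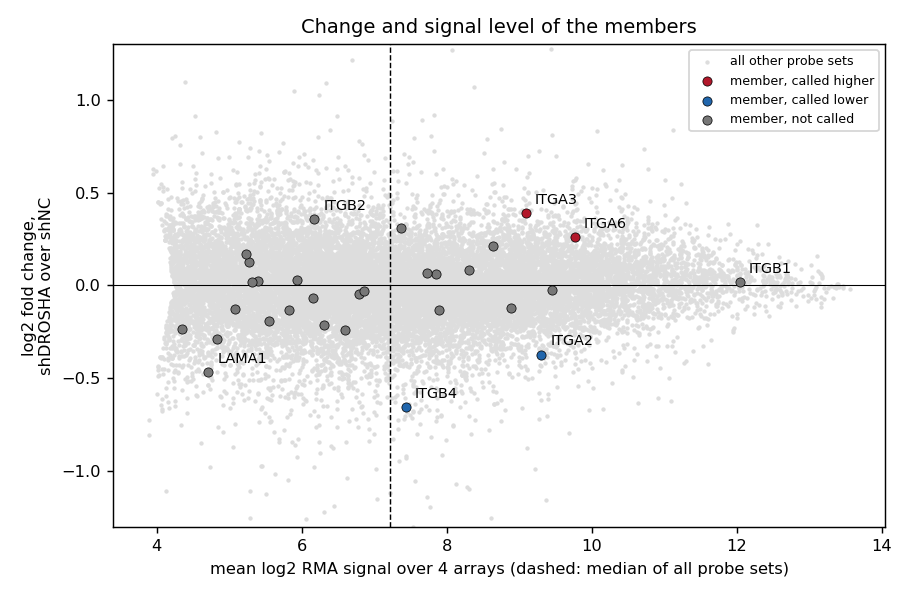
Log2 fold change of shDROSHA over shNC against mean log2 signal for the 30 members (large points) and all other probe sets (small grey points), of which 11 lie beyond the plotted range of 1.3 in either direction. The 4 called members lie right of the dashed median signal, whereas LAMA1, at -0.47, and ITGB2, at 0.36, lie left of it and are not called.

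Among proteins that link integrins to the cytoskeleton, those that fell included FERMT1, TNS4, ILK and CRKL. Of 31 measured adaptors and focal adhesion proteins (38 listed), 6 fell, 1 rose and 24 did not pass. The share called was 22.6%, against 6.41% of all probe sets and 11% of those at or above the median signal, where 26 of the 31 lay. The median log2 fold change was -0.10. FERMT1, the epithelial kindlin that activates integrins through their beta chains, fell to 8.50 and 8.18 in the shDROSHA arrays, against 9.01 and 8.95 in the shNC arrays (log2 fold change -0.64, SE 0.101, limma adjusted p = 0.00187). FERMT2, the kindlin of mesenchymal and many other cells, rose, at 10.80 and 10.79 in the shDROSHA arrays, against 10.59 and 10.59 in the shNC arrays (0.20, SE 0.05, adjusted p = 0.0256). It was the only adaptor called higher, and this call was lost without shNC replicate 1 (adjusted p = 0.135), without shNC replicate 2 (0.112) and with quantile normalization again (0.0502). TNS4, an epithelial tensin that binds beta chain tails, fell by 0.64 (SE 0.115), ILK, the scaffold pseudokinase at beta chain tails, by 0.27 (SE 0.0533) and CRKL, an adaptor of focal adhesion signalling, by 0.30 (SE 0.0611). The ILK call was lost without shNC replicate 2 (adjusted p = 0.0774) and that of CRKL without shNC replicate 1 (0.0927). The others called were LPXN (-0.32) and RSU1 (-0.15), of which LPXN is a relative of paxillin and RSU1 binds the ILK complex. These and FERMT2 were named after their values were seen, and RSU1 lay at the threshold (limma adjusted p = 0.0499). The LPXN call was lost without shNC replicate 2, at a log2 fold change of -0.27. The number called was 0 with a constant prior, which called 1 probe set on the whole array. It also differed between fits that left out single arrays, as did the count over all probe sets.

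Of 14 measured partners of basement membranes and hemidesmosomes (20 listed), 1 rose, 2 fell and 11 did not pass, 21.4% called against 6.41% of all probe sets, with a median of 0.06 and 9 of the 14 above the median signal. SDC2, a heparan sulfate proteoglycan that acts as a matrix co-receptor, rose to 10.54 and 10.63 in the shDROSHA arrays, against 10.06 and 10.08 in the shNC arrays (log2 fold change 0.51, SE 0.0567, limma adjusted p = 0.000117). NTN4, a netrin that binds laminin gamma chains, fell to 9.56 and 9.62 in the shDROSHA arrays, against 9.97 and 9.94 in the shNC arrays (-0.37, SE 0.0628). DST, which includes the hemidesmosome plakin that connects ITGB4 to keratin among its products, fell by 0.18 (SE 0.0419). The DST call was lost with median centring (adjusted p = 0.0636), without shNC replicate 1 (0.137) and without shNC replicate 2 (0.0725), and all 3 calls were lost with a constant prior. COL4A6, a basement membrane collagen chain, was dim and at 0.43 (SE 0.165) without passing.

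Among the non-laminin ligands of integrins, 2 rose, 4 fell and 18 did not pass of 24 measured (27 listed), with a median log2 fold change of 0.05. The share called was 25%, against 6.41% of all probe sets and 11% of those at or above the median signal, where 13 of the 24 lay. THBS1, a matrix glycoprotein that binds several integrins, rose by 0.84 (SE 0.0892). LTBP1, which holds latent TGF-beta in the matrix where ITGAV integrins release it, fell by 0.78 (SE 0.107). TNC, tenascin-C, read 5.81 and 5.57 in the shDROSHA arrays, against 6.52 and 6.81 in the shNC arrays, and fell by 0.98 (SE 0.167, limma adjusted p = 0.00312). CCN1, a matricellular ligand of ITGAV and ITGA6 integrins, rose by 0.23 (SE 0.0467), a call lost without shNC replicate 2 (adjusted p = 0.0664). TGFBI (-0.31) and CCN2 (-0.23), which also bind integrins, completed the 6 and were named after their values were seen. The CCN2 call was lost with median centring (limma adjusted p = 0.0872). It was also lost without shDROSHA replicate 1, shNC replicate 1 or shNC replicate 2, at -0.21, -0.22 and -0.24. The TGFBI call was lost without shNC replicate 1 or 2, at -0.31 and -0.30. The number called was 0 with a constant prior, which called 1 probe set on the whole array. Fits that left out single arrays also differed in this number, as they did in the count over all probe sets.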

How the data were processed

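The values are log2 signals deposited by the authors, 1 per probe set and array, made with RMA per the submitters' processing notes. RMA subtracts background, brings the arrays to a common distribution and combines the probes of a set, so it hides a shift common to most mRNAs and compresses changes of dim probe sets. Its version, any filter and the genome build: not given in the sources used here. No detection calls were used. Of 18603 probe sets, 15886 had 1 gene symbol, 0 several and 2717 none. Symbols came from the platform annotation through Entrez identifiers in RefSeq (GRCh38.p14), all matched.

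All 4 arrays were fitted with limma 3.58.1 in R 4.3.3 (lmFit, eBayes with a signal trend), with no replicate block and Benjamini-Hochberg adjustment over all probe sets at 0.05. "Rose" and "fell" mean past that threshold. The fit had 11.9 prior and 2 residual degrees of freedom, against 3 prior in the constant fit. The trend was used because residual SDs differed with signal, being 0.0672 for the brightest of 5 equal bins and 0.213 for the dimmest. The fitting code was tested on simulated data. Members, lists, motifs, tests and the trended prior were chosen with earlier results of these data known. P-values rest on a variance drawn mostly from probe sets of similar signal, with 11.9 prior against 2 residual degrees of freedom. The rest comes from the spread between 2 arrays per group, whose separate cultures the labels do not describe. The number of arrays limits the precision. Named genes were DROSHA, every measured member, markers and up to 4 genes per list with the smallest p, with exceptions stated. Same-numbered arrays deviated with a correlation of -0.0218, so the numbers were not taken to pair them. Promoter letters come from RefSeq.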

Additional observations from a re-analysis of the deposited data

How the results depend on the processing

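The 4 calls among the members were the same genes with a robust prior, without probe sets below the lower quartile or the median signal, with quantile normalization again, with median centring, with 1 probe set per gene, with an adjusted p of 0.10 and with the replicate number as a block. With a constant prior 0 were called and 1 probe set in all (2774 at an unadjusted p under 0.05). Leaving out single arrays gave 2 to 5 member calls and 535 to 1949 probe set calls, against 1192, and an adjusted p of 0.10 gave 1824. The block gave 1391 and changed no member call. A group left with 1 array was assumed to have the spread of the other. More probe sets could pass with an array fewer, so a call kept in such a fit does not show stability. The share of calls that were higher was 62.5% with median centring, against 48.7% as deposited. The number of adaptors and focal adhesion proteins called was 11 at an adjusted p of 0.10 or with only the brighter probe sets fitted, against 7. That of surface partners was 5 with the block, against 3. Over all probe sets the counts were 1824 at 0.10, 1319 of the 9302 brighter ones and 1391 with the block, against 1192. The members' median was 0.0602 over the 13 above the median signal.

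Signs that turned belonged to members that were not called, and the cause was not tested. ITGB1 was at -0.02 (value -0.0189) with quantile normalization again, and LAMC1 and LAMC3 were at 0.0078 and 0.0012 with median centring. Without single arrays the range was -0.0464 to 0.0803 for ITGB1, -0.0830 to 0.0325 for LAMC1, -0.1085 to 0.0448 for LAMC3, -0.0333 to 0.1629 for LAMB2, -0.2742 to 0.0198 for LAMA2, -0.1049 to 0.0089 for ITGA4, -0.0042 to 0.1247 for ITGA5, -0.5779 to 0.0033 for ITGA8, -0.0903 to 0.1383 for ITGA9, -0.1197 to 0.1742 for ITGAD, -0.0444 to 0.3005 for ITGAL and -0.2015 to 0.2428 for ITGAM.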

Other observations

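Membrane proteins that sit beside integrins at the cell surface were all measured, 14 of 14, and all lay above the median signal. Of them 1 rose, 2 fell and 11 did not pass in limma, 21.4% called against 11% of all probe sets at or above the median signal and 6.41% of all, with a median log2 fold change of 0.02. CAV1, the coat protein of caveolae, read 11.86 and 11.83 in the shDROSHA arrays, against 12.06 and 12.09 in the shNC arrays, and fell by 0.23 (SE 0.0387). CD81, a tetraspanin, read 9.37 and 9.31 in the shDROSHA arrays, against 9.76 and 9.58 in the shNC arrays, and fell by 0.33 (SE 0.0747). LGALS8, a galectin that binds integrin glycans, read 10.27 and 10.35 in the shDROSHA arrays, against 10.03 and 9.92 in the shNC arrays, and rose by 0.34 (SE 0.0619). BSG, basigin, was at -0.17 (SE 0.0535) without passing (adjusted p = 0.0728). The CD81 call was lost without shNC replicate 1, at a log2 fold change of -0.24. The number called was 5 with the replicate number as a block, where 1391 of all 18603 probe sets were called. It was 0 with a constant prior, and differed between fits that left out single arrays, as did the count over all probe sets.

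Of the mesenchymal-like markers of the line, AXL, a receptor tyrosine kinase, rose by 0.33, and the other 4 differed by -0.05 to 0.12 without passing. KRT19, a simple epithelial keratin, was at 8.92 and 8.89 in the shDROSHA arrays, against 9.19 and 9.32 in the shNC arrays, and fell by 0.35, a call lost without shNC replicate 2 (adjusted p = 0.141). The other luminal markers measured did not pass, with ESR1 at 0.12, GATA3 at 0.05 and EPCAM at -0.10. Both measured basal keratins, KRT5 and KRT14, were lower in both shDROSHA arrays without passing, at -0.27 (SE 0.130) and -0.11 (SE 0.177). Each lay below the median signal, and 24.4% of all probe sets were lower without overlap.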
